A study of Arabidopsis thaliana with 6 samples.

Results

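LNK1, LNK2, LNK3 and LNK4 (NIGHT LIGHT-INDUCIBLE AND CLOCK-REGULATED) and the cold-regulated genes COR27 and COR28 were followed in roots of Arabidopsis thaliana. These 6 genes were chosen by their identifiers among the 32833 genes in the count files, and all 6 passed the filter on low counts that left 20941 genes for testing. The groups were the wild type Col (WT) and a line labelled myb68 myb84, with 3 RNA-seq libraries each. Every plant grew untreated on half-strength MS plates at 22 °C in constant light, and RNA came from the topmost 2 cm of 18-day-old primary roots, with at least 40 plants pooled per replicate. The comparison addresses the control of suberin, the waxy wall polymer of the root's cork layer. The nature of the mutations was not given in the sources used here, nor was the time of day at harvest.

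LNK proteins have no known DNA-binding domain. They act as transcriptional coactivators that are brought to clock gene promoters by the Myb-like factors RVE8 and RVE4, where they promote transcription of genes such as PRR5, TOC1 and ELF4. COR27 and COR28 are small nuclear proteins without a known DNA-binding domain. Their genes respond to cold, light and the clock, and the proteins repress clock genes and interact with the COP1-SPA ubiquitin ligase, which marks the light-signalling factor HY5 for degradation. Most of this was worked out in seedlings and leaves, and the root segment studied here was grown in the light.

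The promoters of the LNK genes and COR28 were searched for known clock, light and cold motifs, and the following stretches are shown because they hold a G-box or an evening element. The motifs searched on both strands were the G-box (CACGTG), bound by bZIP and bHLH factors such as HY5 and the PIFs, the evening element (AAAATATCT), bound by CCA1, LHY and RVE factors, the CCA1-binding site (AAAAATCT) and the core of the cold-response element (CCGAC). The window ran from 250 bases before to 50 bases after the annotated gene start in RefSeq TAIR10.1, and no match overlapped another. A G-box was found in 3 of the 4 LNK genes and not in COR28, against 7.11% of 32546 windows of nuclear genes. An evening element was found in COR28 and in no LNK gene, against 2.64% of windows. For LNK3 the 250 bases before the start are printed. For LNK1, LNK2 and COR28, whose matches reach into the transcribed part, a site of 30 bases is printed. Sequences run 5′ to 3′ on the gene's strand, with motif matches in capitals.
LNK3, chr3:3923265-3923514, plus strand: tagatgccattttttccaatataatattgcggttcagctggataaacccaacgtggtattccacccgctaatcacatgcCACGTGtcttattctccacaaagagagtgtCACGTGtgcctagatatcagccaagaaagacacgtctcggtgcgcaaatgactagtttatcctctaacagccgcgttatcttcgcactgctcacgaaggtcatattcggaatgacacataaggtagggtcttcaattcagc
LNK1, chr5:25676808-25676837, minus strand: tgatttagttgcCACGTGttgatatcatgg
LNK2, chr3:20179029-20179058, minus strand: ccactcgtttggCACGTGaccatttcatac
COR28, chr4:16285180-16285209, minus strand: agctccaaaaaAAAATATCTggctgatatt

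The matches sat at different distances from the annotated starts. LNK3 held G-boxes beginning 171 and 141 bases before its start, the G-box of LNK1 began 2 bases before its start and ran across it, and that of LNK2 began at transcribed base 25. The evening element of COR28 began at transcribed base 32. COR28 also had a CCA1-binding site 143 bases before its start, a motif in 7.48% of windows. The cold-response core, in 14.9% of windows, occurred in LNK3 (transcribed base 29) and LNK4 (76 bases before its start) and not in COR28. In the 1000 bases before the start, COR28 had a G-box 599 bases away and LNK3 only those at 171 and 141 bases, against 14.1% of such windows. LNK1, LNK2 and LNK4 had no G-box there. No evening element was found there in COR28 or any LNK gene, against 6.94% of windows. These matches describe letters in the reference and were not measured as binding.

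The libraries held 19446419 to 55907128 counts each, so that a count of 0 would have allowed up to 0.154 CPM in the shallowest (CPM, counts scaled to a library total of 1000000 with TMM factors). MYB84 stood at 8.96, 7.84 and 13.0 CPM in WT 1, 2 and 3 and at 5.94, 4.90 and 7.17 CPM in myb68 myb84 1, 2 and 3 (adjusted p = 0.0442, edgeR). MYB68 stood at 49.3, 49.5 and 62.3 CPM in wild type and at 60.8, 67.7 and 74.8 CPM in the mutant (adjusted p = 0.0613), so its transcript count does not check the label. Only 2 of the 6 fits that dropped a library kept the MYB84 call, those dropping WT 2 or myb68 myb84 3. The other 4 gave adjusted p-values of up to 0.149, and limma-voom gave 0.0613. MYB68 passed as higher after dropping WT 3 (0.00666) or myb68 myb84 1 (0.0471), in DESeq2 (0.0319) and with no low-count filter (0.0407). The series' design text names MYB86 at a place where the sample labels have myb84, which the sources used here do not settle. Mature root markers were present in every library: the 9 markers of suberized cells, cambium, phloem, xylem and root hairs summed to 492 to 530 CPM in wild type against 415 to 453 CPM in myb68 myb84. None was at 0, 1 was called raised (COBL9) and 2 lowered (CYP86A1 and GPAT5), against 4.66% and 3.65% of tested genes. The median log2 fold change of the 9 was 0.01, and CYP86A1, the most abundant, went from a mean of 223 to 153 CPM. The cambium and phloem markers PXY, WOX4, APL and SUC2 did not pass (log2 0.01 to 0.10). The xylem markers XCP1 and XCP2 did not either (-0.25 and -0.11). XCP1 passed as lower without WT 2 (0.0393) and with the replicate number as a block (0.048). The COBL9 call ended on dropping any library (adjusted p up to 0.154), in limma-voom (0.0521) and with upper-quartile scaling (0.0623), and the GPAT5 call on dropping myb68 myb84 1 (0.0505) or 2 (0.0518). Green tissue transcripts were also present, as described further on. In whole segments, fewer cells of a type and less RNA per cell cannot be told apart.

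All 4 LNK genes rose in myb68 myb84, and COR28 fell. With edgeR's quasi-likelihood test and adjustment over all tested genes, 4 of the 6 genes were called raised, against 4.66% of tested genes. COR28 was called lowered, against 3.65% of tested genes, and COR27 was lower in the same direction without passing. The median log2 fold change of the 6 was 0.58, and that of all tested genes was -0.003. The groups did not overlap in any of the 6, against 27.2% of tested genes, of which 14.1% had the mutant higher and 13.2% the mutant lower. DESeq2 and limma-voom each called the same numbers, 4 raised and 1 lowered. Both numbers depended on single libraries: 3 were raised without WT 1 or without myb68 myb84 2, and none was lowered without WT 1 or without myb68 myb84 3.

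**Figure D1:**
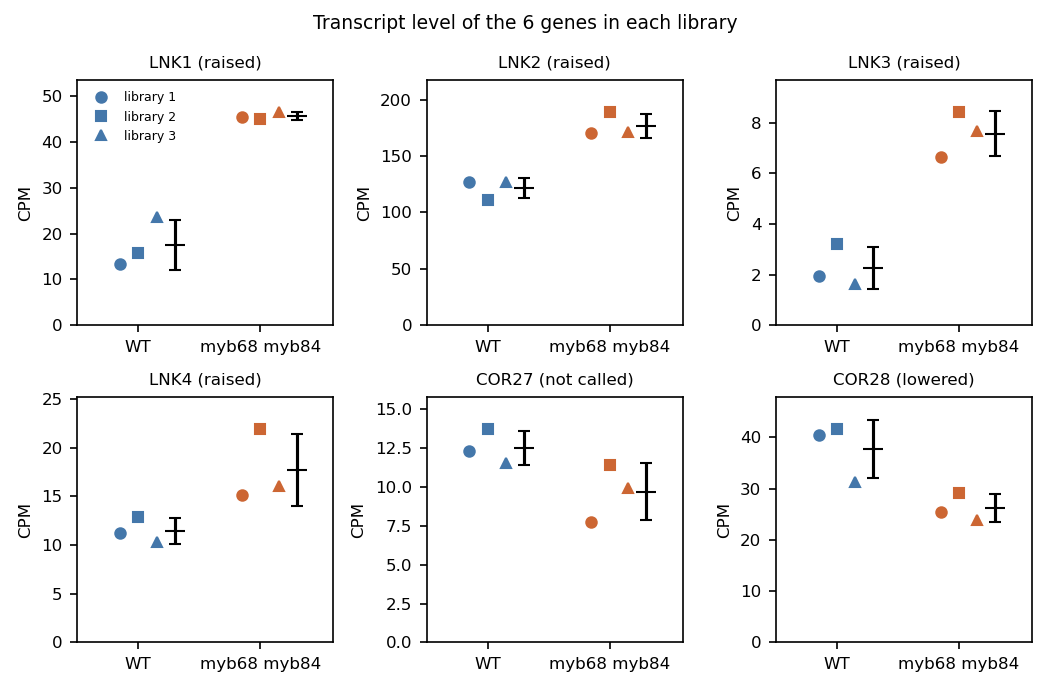
Transcript level in CPM (vertical axis, from 0) of the 6 genes in the 3 wild-type libraries (blue) and the 3 myb68 myb84 libraries (orange); black bars are mean and SD over 3 libraries. In each LNK panel every mutant library lies above every wild-type library, from 45.1 CPM and up against at most 23.6 CPM for LNK1, and in both COR panels every mutant library lies below.

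LNK1 (AT5G64170, chromosome 5, 25672466 to 25676823, minus strand) encodes the founding member of the family, which with LNK2 links light signals to the clock. Its level was 13.3, 15.7 and 23.6 CPM in WT 1, 2 and 3, and 45.4, 45.1 and 46.6 CPM in myb68 myb84 1, 2 and 3. The mutant libraries were nearly alike and all lay above the wild type, where WT 3 stood apart from WT 1 and WT 2. The means were 17.6 ± 5.38 and 45.7 ± 0.833 CPM (SD, n = 3 each), a 2.65-fold rise (95% interval 1.99 to 3.54; log2 1.41, SE 0.18, adjusted p = 0.0025). Only 1.14% of tested genes changed at least as much. The log2 fold change ran from 1.23 without WT 1 to 1.67 without WT 3, and the call stayed in all 6 fits that left out a library (adjusted p up to 0.0233).

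LNK2 (AT3G54500, chromosome 3, 20175370 to 20179070, minus strand), the closest partner of LNK1, was the most abundant of the group. Its level was 127, 111 and 127 CPM in WT 1, 2 and 3, and 170, 189 and 171 CPM in the mutant libraries. Library 2 was the lowest of the wild type and the highest of the mutant, and the groups were well apart. It rose 1.45-fold (95% interval 1.29 to 1.63; log2 0.54, SE 0.08, adjusted p = 0.00105), from 122 ± 9.02 to 177 ± 10.9 CPM. The biological coefficient of variation was 7.59%, the smallest of the 6 genes. Leaving out any library kept the call (adjusted p up to 0.00774).

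LNK3 (AT3G12320, chromosome 3, 3923515 to 3925502, plus strand) encodes a shorter family member. It was the least abundant and changed the most. Its level was 1.95, 3.2 and 1.63 CPM in WT 1, 2 and 3, and 6.63, 8.42 and 7.65 CPM in the mutant libraries. The highest wild-type library, WT 2, stood below the lowest mutant library by more than counting error, with 95% Poisson intervals of 2.55 to 3.96 CPM and 5.86 to 7.47 CPM. WT 3 rested on 32 counts (1.11 to 2.29 CPM). The rise was 3.35-fold (95% interval 2.40 to 4.67; log2 1.74, SE 0.22, adjusted p = 0.000429), a size reached by 0.568% of tested genes. The log2 value was 1.6 to 2.05 with a library left out, and the call stayed in each of these fits.

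LNK4 (AT5G06980, chromosome 5, 2167120 to 2169437, plus strand) is the closest relative of LNK3. Its level was 11.2, 12.9 and 10.3 CPM in WT 1, 2 and 3, and 15.1, 21.9 and 16.1 CPM in the mutant libraries. Library myb68 myb84 2 was well above the other mutant libraries, which lay slightly over the wild type. It rose 1.54-fold (95% interval 1.23 to 1.91; log2 0.62, SE 0.15, adjusted p = 0.0204). The call ended without WT 1 (adjusted p = 0.0876) and without myb68 myb84 2 (log2 0.44, adjusted p = 0.0787).

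COR28 (AT4G33980, chromosome 4, 16282281 to 16285229, minus strand), a repressor acting on clock and light-signalling genes, went the other way. Its level was 40.5, 41.6 and 31.3 CPM in WT 1, 2 and 3, and 25.4, 29.2 and 23.9 CPM in the mutant libraries. WT 3 lay close to the highest mutant library, while WT 1 and WT 2 were far above. The gap between WT 3 and myb68 myb84 2 lay within counting error. Their 95% Poisson intervals were 28.9 to 33.9 and 27.3 to 31.1 CPM. COR28 fell to 0.687 times the wild type (95% interval 0.581 to 0.813, log2 -0.54, SE 0.11, adjusted p = 0.0101). The call ended without WT 1 (adjusted p = 0.0576) and without myb68 myb84 3 (0.0552), with log2 values of -0.49 and -0.48.

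COR27 (AT5G42900, chromosome 5, 17197641 to 17199910, minus strand), the partner of COR28 in these roles, was lower in the mutant without passing the test. Its level was 12.3, 13.7 and 11.5 CPM in WT 1, 2 and 3, and 7.73, 11.4 and 9.95 CPM in the mutant libraries. The gap between WT 3 and myb68 myb84 2 lay within counting error, as their 95% Poisson intervals were 10.1 to 13.1 and 10.2 to 12.6 CPM. The ratio of the mutant to the wild type was 0.773 with an unadjusted 95% interval of 0.623 to 0.958 (log2 -0.37, SE 0.14), and it did not pass (adjusted p = 0.14, unadjusted p = 0.0223). It did not pass in any of the 13 alternatives either, where adjusted p-values were 0.0819 to 0.376.

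The order of levels per exon length differed between the genotypes. Levels were taken as CPM per kilobase of annotated exon, since the genes differ in length. In wild type LNK2 led with 41.6 ± 3.08, followed by COR28 with 22.2 ± 3.31, COR27 with 8.82 ± 0.776, LNK1 with 6.58 ± 2.02, LNK4 with 6.20 ± 0.71 and LNK3 with 1.37 ± 0.503 (mean ± SD, n = 3). COR27 and LNK1, and LNK1 and LNK4, overlapped between libraries and were not separated, while the other neighbours in this order were. LNK2 stood above 85.8% of tested genes on this scale and LNK3 above 13.1%. In myb68 myb84 LNK1 moved to the second place with 17.1 ± 0.312 and overlapped with COR28 at 15.3 ± 1.59. LNK4 at 9.57 ± 2.00 lay above COR27 at 6.84 ± 1.3, with 8.15 as its lowest library against 8.04 as the highest of COR27, and LNK3 was lowest at 4.59 ± 0.547.

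The summed LNK level was higher in the mutant and its make-up differed, which is given as a description without a test. Per exon length the 4 genes summed to 55.6, 52.8 and 58.8 CPM per kilobase in WT 1, 2 and 3 and to 87.3, 98.5 and 89.2 in the mutant libraries, a ratio of 1.64 between the means. LNK2 held 72.0% to 78.0% of this sum in wild type and 65.4% to 66.6% in the mutant. LNK1 held 8.99% to 15.1% and 17.2% to 19.6%, and LNK3 held 1.68% to 3.67% and 4.61% to 5.21%, so that the groups did not overlap in any of these 3 shares. These are parts of the same sum, so they are not separate observations. In CPM, 27.2% of tested genes did not overlap between the groups, and the rate for shares was not computed. The share of LNK4 overlapped between the groups, at 9.48% to 13.2% and 9.34% to 12%. COR27 and COR28 together summed to 32.4, 34.1 and 26.5 in wild type and to 20.3, 25.1 and 21.0 in the mutant, 0.715 times the wild-type mean.

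**Figure D2:**
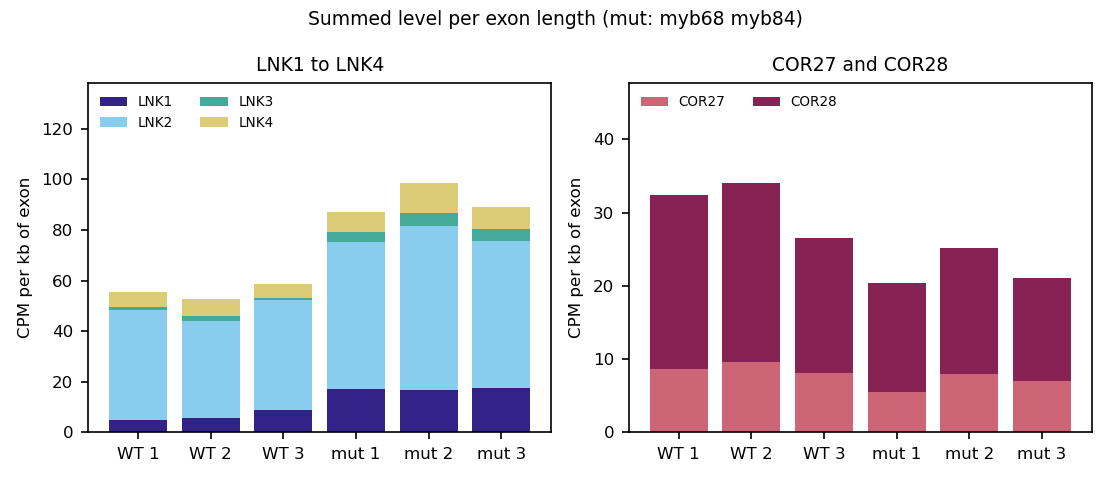
Stacked levels in CPM per kilobase of exon (vertical axes, from 0) in each library, for the LNK genes on the left and the COR genes on the right (mut, myb68 myb84). The LNK stacks reach 52.8 to 58.8 in wild type and 87.3 to 98.5 in the mutant, with LNK2 as the largest part, while the COR stacks reach 26.5 to 34.1 and 20.3 to 25.1.

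The ratio of the paralogues differed between the genotypes without overlap in 2 of the 3 pairs. The ratio of LNK1 to LNK2 per exon length was 0.115, 0.155 and 0.204 in WT 1, 2 and 3 and 0.293, 0.261 and 0.3 in the mutant libraries, a difference of 0.88 on the log2 scale. The ratio of LNK3 to LNK4 was 0.195, 0.278 and 0.177 in wild type and 0.494, 0.431 and 0.534 in the mutant, a log2 difference of 1.19. Both gave p = 0.1 in a two-sided exact permutation test, the smallest this test allows with 3 libraries against 3. These ratios use the same levels as the shares above. The ratio of COR27 to COR28 was 0.365, 0.396 and 0.443 in wild type and 0.367, 0.470 and 0.501 in the mutant, where the groups overlapped (log2 difference 0.14, exact p = 0.4). With a library left out these differences were 0.68 to 1.09, 1.05 to 1.38 and 0.05 to 0.28.

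Overlapping neighbours and shared sequence bear on read assignment. Each LNK gene overlaps an annotated neighbour, on the opposite strand for LNK1, LNK2 and LNK3 and on the same strand for LNK4. Without a stated strand setting, reads from opposite strands cannot be told apart here. For LNK4 no strand setting would separate them. The largest shared stretch was 245 exonic bases of LNK1 (9.19% of its exon length) with AT5G64160 on the opposite strand, which stood at 13.9 ± 0.861 CPM in wild type against 13.6 ± 1.57 CPM (log2 -0.04, adjusted p = 0.888). The neighbours of LNK2 were at or near 0, and those of LNK3 and LNK4 shared 5 and 13 exonic bases with them and did not pass (adjusted p = 0.845 and 0.635). COR27 and COR28 overlap no annotated gene. Coding sequences of LNK3 (810 bases) and LNK4 (840 bases) were 77.1% identical over 756 aligned bases, with a longest shared run of 24 bases. COR27 (741 bases) and COR28 (699 bases) were 67.6% identical, within the range of 62.4% to 69.5% found between LNK and COR genes, with a longest run of 11 bases. Identity counted aligned bases only and left out gaps. LNK1 and LNK2 gave 64.1% by this measure, so values in this range do not show how closely genes are related.

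Among genes for the DNA-binding partners of the LNK proteins and related Myb factors, 4 of 7 tested rose and none fell, against 4.66% of all tested genes raised. Their median log2 fold change was 0.38. The 3 that did not pass were AT5G52660 (-0.02, adjusted p = 0.929), AT4G01280 (0.11, 0.475) and AT1G01520 (0.24, 0.884). RVE8, the main factor that brings LNK proteins to DNA, went from 12.6, 14.3 and 14.6 CPM to 25.7, 23.1 and 24.5 CPM (log2 0.83, adjusted p = 0.000234), and the groups were far apart. RVE4, its close relative, rose by 0.38 (adjusted p = 0.0147). CCA1, a morning repressor that binds the evening element, rose by 0.70 (adjusted p = 0.00391). Its partner LHY rose by 0.99 (adjusted p = 0.0279), with 5.06 to 8.33 CPM in the wild-type libraries against 9.33 to 16.6 CPM. Dropping WT 1 (adjusted p = 0.0804) or myb68 myb84 2 (0.067) ended the RVE4 call. The LHY call ended on dropping any library but WT 3 and myb68 myb84 2 (up to 0.1), and the list had 2 calls without WT 1.

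Clock genes known as targets of RVE8 and LNK proteins, or as neighbours in the same circuit, rose in part. Of 9 tested, 5 rose and none fell (median 0.29), where 4.66% of all tested genes rose. The pseudo-response regulator gene PRR9 went from 2.93, 3.16 and 3.56 CPM to 11.8, 13.0 and 13.7 CPM (log2 2.01, adjusted p = 3.78e-06), and the groups were far apart. GI, a clock and flowering regulator, rose by 0.83 (adjusted p = 0.00042) and ELF4, of the evening complex, by 0.41 (adjusted p = 0.00571). LUX, also of the evening complex, and TOC1, an evening repressor, rose by 0.26 and 0.29 (adjusted p = 0.0356 and 0.0418). The clock genes PRR5 (0.30, adjusted p = 0.0557), PRR7 (0.28, 0.0737), ELF3 (0.15, 0.351) and BOA (-0.10, 0.71) did not pass. Dropping any of the 6 libraries ended the LUX call (adjusted p up to 0.129), and the TOC1 call in each but that without myb68 myb84 1 (up to 0.172). Both ended with upper-quartile scaling (0.0511 and 0.0556), which left 3 calls, as did leaving out any library but myb68 myb84 1, while DESeq2 and no low-count filter gave 7, with PRR5 and PRR7 added. Exons of LUX and of BOA overlap a gene on the opposite strand.

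Of 14 tested genes of COP1-SPA, HY5, photoreceptors and related light signalling, 7 rose and none was lowered (median 0.29), beside 4.66% raised among all tested genes. The COP1 gene itself stood at 37.2 to 37.6 CPM in wild type against 39.6 to 41.9 CPM (log2 0.14, adjusted p = 0.271). Of the SPA genes, whose proteins form the ligase with COP1, SPA1 went from 53.3, 55.7 and 64.6 CPM to 112, 105 and 111 CPM (log2 0.92, adjusted p = 2.07e-05). SPA3 and SPA4 rose by 1.09 and 0.55 (adjusted p = 2.39e-05 and 0.0067), and SPA2 stood at 0.11 without passing (adjusted p = 0.397). The substrate genes HY5 and HYH, bZIP factors of the light response, rose by 0.77 and 1.62 (adjusted p = 0.00187 and 0.000106), HYH from 3.24, 3.84 and 4.52 CPM to 14.1, 10.5 and 10.3 CPM. The red-light receptor gene PHYB and the growth regulator gene PIF4 rose by 0.43 and 0.57 (adjusted p = 0.00259 and 0.0226). The other receptor genes PHYA (0.04, adjusted p = 0.817), UVR8 (0.14, 0.294), CRY1 (0.14, 0.282) and CRY2 (0.01, 0.953) did not pass. DET1 did not either (0.01, 0.961). The PIF4 call ended without WT 1, myb68 myb84 2 or myb68 myb84 3 (up to 0.0962). Exons of SPA3 and SPA4 overlap neighbours on the opposite strand.

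**Figure D3:**
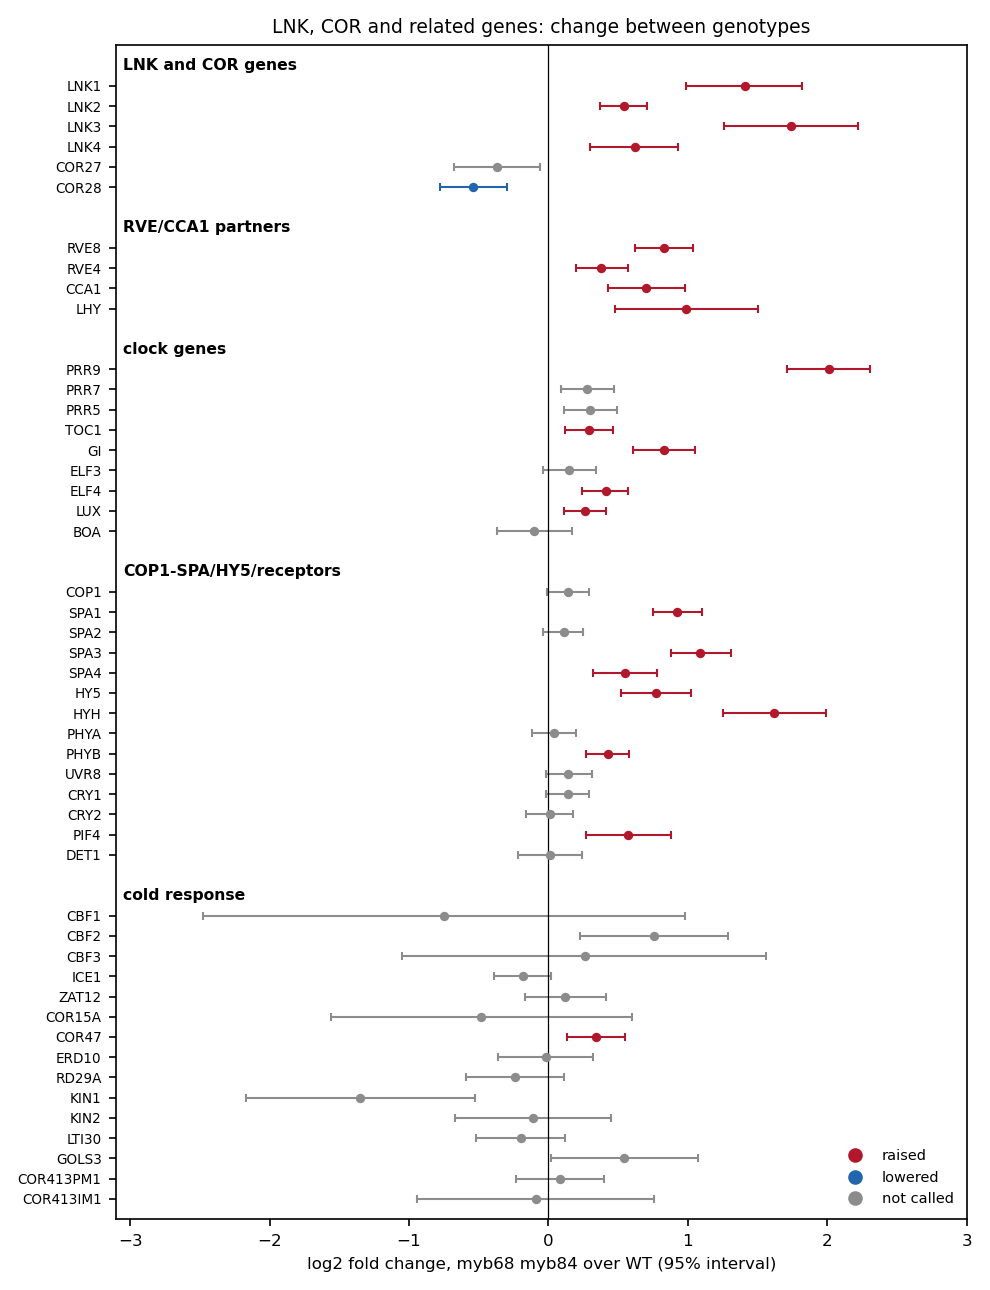
Log2 fold change of myb68 myb84 over WT (horizontal axis) with unadjusted 95% intervals. Drawn are the LNK and COR genes and genes of 4 of the 5 lists, without the anthocyanin list and untested genes. The 3 genes of the RVE and CCA1 list that did not pass are also not drawn, so that list shows raised genes only. Red is raised, blue lowered and grey not called. The 4 LNK genes lie between 0.54 and 1.74 and the COR genes at -0.37 and -0.54, while among cold-response genes only COR47 is coloured.

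Among genes of the cold response, for which COR27 and COR28 are named, none was called lowered. Of 16 genes, 15 were tested, COR47, a dehydrin gene, rose by 0.34 (adjusted p = 0.0457), a share of 6.67% called against 8.30% of all tested genes in either direction. The list median was -0.09. The COR47 call ended without any library but WT 2 (adjusted p up to 0.177) and with upper-quartile scaling (0.06). The cold-regulated gene KIN1 stood at 40.7, 72.0 and 46.6 CPM in wild type and at 24.3, 13.8 and 24.0 CPM in the mutant, groups that did not overlap. KIN1, named after its values were seen, did not pass in edgeR (log2 -1.35, adjusted p = 0.076) and passed in DESeq2 (0.00244) and limma-voom (0.00392). CBF2, a cold-response activator gene also named after its values were seen, lay higher without overlap, at 1.45, 1.79 and 2.64 CPM in wild type and 3.36, 3.24 and 3.07 CPM in the mutant (log2 0.76, adjusted p = 0.0801). CBF2 passed in limma-voom (0.0386) and without WT 3 (0.0198).

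LNK proteins also act on anthocyanin and phenylpropanoid genes through Myb factors. Of 12 such genes 10 were tested, and DFR, which makes leucoanthocyanidins, was the only call, a share of 10% against 8.30% of all tested genes called in either direction. DFR stood at 5.66, 7.84 and 3.91 CPM in wild type and at 2.21, 0.936 and 0.57 CPM in the mutant (log2 -2.25, adjusted p = 0.025), and the list median was 0.03. The DFR call ended on dropping WT 1 (0.0648), WT 2 (0.0623) or myb68 myb84 2 (0.119), as did omitting the low-count filter (0.061). LDOX, named after its values were seen, stood at 2.68, 3.2 and 2.59 CPM in wild type and at 2.65, 0.312 and 0.143 CPM in the mutant (adjusted p = 0.475), so that myb68 myb84 1 lay with the wild type. It passed as lower without that library (0.000522) and in limma-voom (0.0319). UF3GT also passed as lower without that library (0.00676), which gave 3 lowered calls in the list.

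The individual libraries of one genotype ranked differently from gene to gene. WT 3 was the highest wild-type library for LNK1, CCA1, GI, HY5 and HYH and the lowest for LNK3, LNK4, COR27 and COR28. WT 3 also had the lowest sum of 10 green tissue markers (photosynthesis genes), 2073 CPM against 3139 and 3398 CPM in WT 1 and 2 and 3929 to 4493 CPM in the mutant. None of these markers was at 0. Of the 10, 3 were called raised (RBCS1A, RCA and LHCA1), against 4.66% of tested genes, and none lowered. Their median log2 fold change was 0.61, beside -0.003 for all tested genes, and 9 of the 10 had a positive value. The raised count was 0 without myb68 myb84 2, 1 without either other mutant library, 2 without WT 1, 5 without WT 2 or WT 3, 7 in DESeq2 and 6 in limma-voom. RBCS2B went the other way, with 20.9, 12.7 and 2.95 CPM in WT 1, 2 and 3 and 1.69, 2.4 and 2.76 CPM in the mutant libraries (log2 -2.45, adjusted p = 0.137). RBCS2B was called lowered in DESeq2 (0.0179), in limma-voom (0.0425) and without WT 3 (7.44e-05). The part of green tissue in the LNK and COR results was not tested. Without WT 3, all 4 LNK genes were called raised and COR28 lowered, as with it. The green marker sums of WT 1 and 2 still lay below those of the mutant, so this fit does not bear on the part of green tissue.

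**Figure D4:**
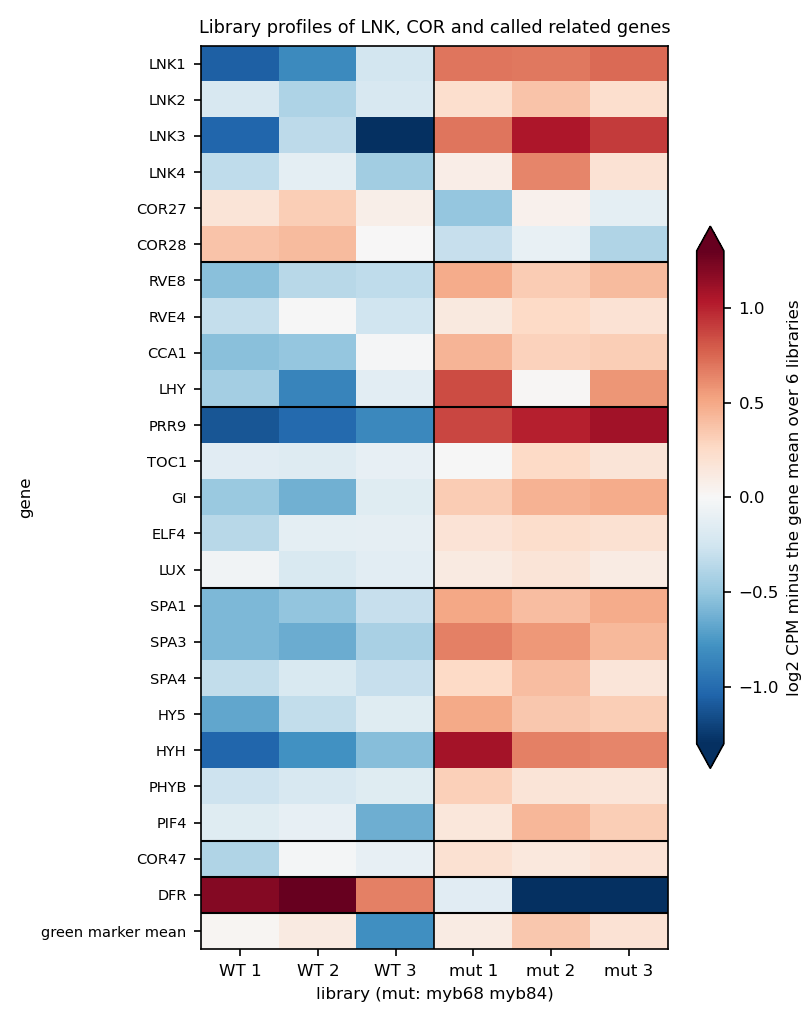
Log2 CPM minus each gene's mean over 6 libraries (colour) for the LNK and COR genes, the called genes of the lists and the mean of the 10 green markers, by library (mut, myb68 myb84); black lines divide the lists and the genotypes, and DFR runs past the scale. LNK1 is at -1.06, -0.83 and -0.24 in WT 1, 2 and 3 and at 0.69 to 0.74 in the mutant, and the green marker mean is at -0.80 in WT 3.

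The genes closest in profile were sought by the root mean square difference of mean-centred log2 CPM over the 6 libraries, among 17988 genes with a mean of at least 2 CPM. This measure includes the genotype difference and is a description. For LNK1 they were the heat shock factor gene AT-HSFB2B (AT4G11660, 0.073) and the B-box gene BBX29 (0.099), for LNK2 AT1G72900 (0.038) and the NAC factor gene NTM1 (0.047), and for LNK4 AT4G07820 (0.061) and AT2G34620 (0.068). LNK3 had no profile as near, with AT5G44572 at 0.247 and SNC4 at 0.257. For COR28 they were the glycosyltransferase gene UGT85A5 (0.044) and the acyl-CoA-binding protein gene ACBP3 (0.046). Among the 6 genes themselves COR27 and COR28 were the nearest pair (0.174), followed by LNK2 and LNK4 (0.197), and LNK1 was 0.499 from LNK3. Many other genes lay nearer than these partners: COR27 ranked 333 for COR28, and LNK2 ranked 323 for LNK4. Seen from the other gene of each pair, COR28 ranked 672 for COR27 and LNK4 ranked 1495 for LNK2. For the paralogues, LNK2 ranked 384 for LNK1 but LNK1 16713 for LNK2. LNK4 ranked 335 for LNK3 but LNK3 17168 for LNK4.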

How the data were processed

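The authors deposited raw counts per gene, 1 file per library. Per the submitters' processing notes, Trim Galore, HISAT, featureCounts and DESeq2 were named with build TAIR10. Tool versions, the annotation release, strandedness and how multi-mapping reads were handled were all not given in the sources used here. Positions, exon lengths and sequences came from RefSeq TAIR10.1, in which 32548 of 32833 identifiers had an entry.

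The 6 genes and the lists were chosen with earlier results of these data known. The test was edgeR 4.0.16 (quasi-likelihood F test, robust, TMM, filterByExpr with a minimum count of 10, genotype as the only term) in R 4.3.3, with Benjamini-Hochberg adjustment over 20941 genes and calls at an adjusted p under 0.05. Fold changes are myb68 myb84 over WT, and an SE is the size of that log2 value over the square root of F. Tested on simulated counts for 20941 genes, it found 78 of 100 genes set to change 1.5-fold and 93 of 100 set to change 2-fold. The genes set to change were drawn only from those with a mean of at least 2 CPM. Of the 191 calls, 20 were unchanged genes, a larger share than the threshold of 0.05. Poisson intervals and floors (3 counts) cover counting error only. The edgeR p-values set the genotype difference against the spread between libraries, each from a plant pool, with counting error included.

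Named were the 6 genes, called genes of 5 fixed lists (up to 8 each), the 2 nearest profiles of each called gene of the 6, and the gene pair of the label. Other list genes and the markers in the text were named after their values were seen. Alternatives were DESeq2 1.42.0, limma-voom 3.58.1, DESeq2 size factors, upper-quartile scaling, 2 other filters (none, and at least 1 CPM in 3 libraries), a replicate block and each library left out. Replicate libraries were not alike within sampling noise (chi-square per degree of freedom at least 10.7). The promoter window of 1 of the 6 genes is not reported here.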

Additional observations from a re-analysis of the deposited data

How the results depend on the processing

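No direction reversed for the 6 genes in 13 alternatives or for the paralogue ratios in 7. Leaving out a library moved the count of LNK and COR genes called raised between 3 and 4 and of those called lowered between 0 and 1. It moved the log2 fold change of LNK4 between 0.44 and 0.72, of COR28 between -0.65 and -0.47, of all genes raised between 579 and 947, of all lowered between 435 and 723, and the calls in the fixed lists between 11 and 18. Against 975 raised and 764 lowered, WT 1 left 589 and 435 when left out, myb68 myb84 2 left 590 and 472, and myb68 myb84 3 left 579 and 489. The calls in the lists numbered 18 with all libraries and 11 without WT 1. The cause was not tested.

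With the replicate number as a block the same 4 genes were raised and 1 lowered, and COR27 still did not pass (log2 -0.39, adjusted p = 0.0819). All genes raised and lowered were 1154 and 915 with the block. It also called MYB68 higher (0.00999) and 8 of the 10 green markers raised. Libraries with the same number did not deviate together (correlations -0.00589, 0.0244 and 0.0837 for replicates 1, 2 and 3), so the number is not taken as a pairing. At this depth LNK3, with 32 counts in WT 3, was the least precise.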
